A study of Caenorhabditis elegans with 2 samples.

Results

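The genes described here are the 269 protein-coding genes of Caenorhabditis elegans whose names begin with nhr-, out of 19973 protein-coding genes on the 6 nuclear chromosomes of the WBcel235 annotation. They encode nuclear hormone receptors. What was measured is where DPL-1, the worm DP protein and DNA-binding partner of E2F factors, sat on chromatin, by ChIP-seq (immunoprecipitation of DNA with the tagged protein, then sequencing), given as lists of peaks. The material was whole L4 larvae, male and female pooled, in 1 group of 2 biological replicates. Every animal was of strain OP105, genotype unc119(ed3), and carried the insertion wgIs105(dpl-1::TY1 EGFP FLAG;unc119), which supplies the tagged DPL-1 from a transgene. No untagged or otherwise different group is among the samples, so there is no comparison between conditions.

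A gene is called bound where a summit of the thresholded list fell between 500 bp upstream and 200 bp downstream of any of its annotated transcript starts. The thresholded list comes from the irreproducible discovery rate (IDR), a measure of how well replicates rank the same peaks, and holds 3369 peaks with signals of 46.4 or more. Weaker summits came from a relaxed list of 30000 peaks called on the pooled replicates, which reaches down to a signal of 8.83. That list was deposited as peaks and background for the IDR step, so its weaker entries may be background and are not read as binding. The genes were chosen by name, and the bound ones among them were chosen by the same IDR summits and signals that are given below, so these values are a description and were not tested. The signal of each peak was set by the authors on a scale not stated, and the lists carry no read counts, so sequencing depth is unknown. In whole larvae, a weak peak from many cells and a strong peak from few cells cannot be told apart, and peak lists offer no marker by which to check the stage or the tissues.

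Nuclear hormone receptors are transcription factors that bind DNA through a zinc finger domain and are often switched by small lipophilic ligands. Nematodes have far more of them than insects or vertebrates. A few worm receptors have clear counterparts in other animals, and most of the rest descend from a receptor like vertebrate HNF4, often as tandem copies on chromosome V. Several of the HNF4-like receptors control fat, propionate and xenobiotic metabolism, whereas conserved receptors such as NHR-23 and NHR-25 drive moulting and epidermal development. DPL-1 itself works with E2F factors in the cell cycle and in the DRM complex, which represses genes in resting cells.

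DPL-1 peaks were present at few nuclear hormone receptor genes, and those present were mostly weak. Of the 269 genes, 13 (4.83%) were bound, beside 13.5% of all protein-coding genes. The 13 bound genes had a median signal of 64.1, from 46.5 to 388, beside a median of 148 over all 2701 bound genes. Of the 13, 12 lay under that median of all bound genes. The upper quartile of the 13 was 86.9 and that of all bound genes was 311. Each of the 13 genes had a single IDR summit in its window, and the 13 summits were distinct.

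The strongest peak of the family was at nhr-47. Its summit at chrV:5505246 lay at -7 bp from the start of nhr-47 and had a pooled signal of 388, rank 429 in the IDR list. Replicate 1 gave 177 there and replicate 2 gave 207, so both libraries placed it among their own strongest peaks, at ranks 497 and 399. The same summit lies in the window of dnj-19, which encodes a DnaJ-type chaperone and starts on the other side of a gap of 395 bp, so the peak need not belong to nhr-47. The summit at chrV:11573047 was next among those of V, at -393 bp from the start of nhr-68, with 141 pooled, 65.6 in replicate 1 and 76 in replicate 2. NHR-68 acts with NHR-10 to turn on the propionate shunt, a bypass used when vitamin B12 is short. That summit is shared with H12C20.7, which is transcribed away from nhr-68 and whose start is the nearer of both. At nhr-256 the summit, chrV:1743680, lay at -91 bp and had 86.9 pooled, 34.7 in replicate 1 and 53.8 in replicate 2. At nhr-1, with its summit at chrX:17513804 and at -259 bp, the values were 72.3, 27.2 and 44.3. These last 2 genes stand alone: the next gene upstream ends 2596 bp from nhr-256 and 27227 bp from nhr-1, so here the window that holds the summit is that of the receptor gene only.

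The sequences around those 4 summits are shown because they are 4 of the 5 strongest summits of the family, and 3 of them hold the GAGAG letters counted below. Each runs 5′ to 3′ on the plus strand of WBcel235, the strand on which the 4 genes are transcribed, from 100 bp before the summit to 100 bp after it, and stops where an exon of a protein-coding gene begins. The positions are chrV:5505146-5505252 (107 bp) for nhr-47, chrV:11572991-11573147 (157 bp) for nhr-68, chrV:1743580-1743770 (191 bp) for nhr-256 and chrX:17513704-17513904 (201 bp) for nhr-1. Capitals mark GAGAG or its complement CTCTC. No match to the E2F site (TTCCCGC or TTCGCGC or TTGCCGC or TTGGCGC) or to the CHR element (TTTGAA or TTCGAA), the site of the DRM subunit LIN-54, is present in any of the 4 on either strand.
nhr-47: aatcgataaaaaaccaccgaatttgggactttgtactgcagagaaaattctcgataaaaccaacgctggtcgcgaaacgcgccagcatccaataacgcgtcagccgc
nhr-68: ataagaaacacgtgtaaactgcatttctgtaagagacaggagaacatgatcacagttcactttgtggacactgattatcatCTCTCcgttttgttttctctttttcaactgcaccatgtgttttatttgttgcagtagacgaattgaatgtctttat
nhr-256: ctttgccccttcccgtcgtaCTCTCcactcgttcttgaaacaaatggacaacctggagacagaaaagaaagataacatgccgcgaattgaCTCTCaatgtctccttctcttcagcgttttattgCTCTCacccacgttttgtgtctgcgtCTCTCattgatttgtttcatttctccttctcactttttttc
nhr-1: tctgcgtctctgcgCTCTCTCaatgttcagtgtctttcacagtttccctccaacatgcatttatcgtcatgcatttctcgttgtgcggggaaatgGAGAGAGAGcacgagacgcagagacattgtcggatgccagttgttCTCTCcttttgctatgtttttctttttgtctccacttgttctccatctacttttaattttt
The nhr-1 stretch holds GAGAGAGAG at its summit, with matches beginning 5, 3 and 1 bp before it, and CTCTC again 40 bp after it. In nhr-256 there are 4 copies of CTCTC, at 80 and 10 bp before and 24 and 50 bp after the summit. The nhr-68 stretch has 1 copy, 25 bp after the summit. The nhr-47 stretch has none in the part shown, and 1 copy 42 bp after the summit, in the transcribed part that is not printed. The stretch at nhr-47 also overlaps an annotated non-coding RNA, C24G6.10.

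Over the whole set, GAGAG was found within 100 bp of the summit at 12 of the 13 bound genes, all but nhr-122. It was in 54.1% of the windows of equal length at all 3369 IDR summits, and in 29.6% of windows of that length centred 100 bp upstream of protein-coding starts. Within 50 bp the count was 10 of 13, beside 40% of all IDR summits. The E2F site was found at 1 of the 13, nhr-64, 53 bp after its summit, beside 19.9% of all IDR summits and 6.29% of the promoter windows. The CHR element was found at 3, nhr-50, nhr-58 and nhr-122, beside 48.8% and 56.2%. Both strands were searched, and matches of a repeat may overlap each other. The GC content of the 13 windows ran from 35.3 to 48.8% with a median of 43.3%, close to the median of 41.3% at all IDR summits. These are counts of letters in windows of known peaks, and whether DPL-1 depends on them was not tested.

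Of the other 9 bound genes, nhr-49 had the clearest peak. NHR-49 is a regulator of fatty acid oxidation and desaturation. Its summit, at chromosome I position 9869309 and -342 bp from the nearest of its 6 annotated starts, had 129 pooled, 61.5 in replicate 1 and 65.3 in replicate 2. The replicates ranked it 1315 and 1414, and no other gene's window holds it. The peak at nhr-119 on chromosome II, at -421 bp, had 64.1, 32.9 and 34.9 in the same order. For both genes the libraries gave nearly equal values.

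At 4 of the weaker peaks, those of nhr-50, nhr-58, nhr-35 and nhr-122, the replicates differed most in ratio. At nhr-50 the pooled signal was 70.0, with 17.6 in replicate 1 and 50.8 in replicate 2. The summit there lies in an untranslated exon, 7 bp after the nearest of the 4 annotated starts of nhr-50. At nhr-58 the values were 55.5, 18.3 and 39.7, and at nhr-35, an HNF4-related receptor gene on the X, 51.7, 14.5 and 34.4. At these 3 genes replicate 2 was the higher and replicate 1 placed the peak no better than rank 5484. At nhr-122 on chromosome IV, whose summit is in an intron 103 bp after the start, replicate 1 was the higher, with 35.5 against 13, and the pooled signal was 46.9. The peak of nhr-40, a receptor gene needed for muscle development, had 61.3 pooled, 22.0 and 24.2, and lies in an intron, 378 bp upstream of an internal start and far inside the gene. The values of the replicates at nhr-40 were close, as they were at the remaining peaks. These were at nhr-57, which is induced by hypoxia through HIF-1, with 47.8, 26.0 and 21.4, and at nhr-64, another HNF4-related gene, with 46.5, 21.9 and 20.6. The pooled signals come from peaks called on the pooled replicates. At most of the bound genes they lie near the replicate values added together, but at nhr-40 the pooled value is well above that. The values are set side by side here only to show which replicate was higher. The plot of signal at the bound genes shows replicate 2 above replicate 1 for 10 of the 13. The same share over all IDR peaks was not counted, so this is no result about the receptor genes. By rank within its own list, replicate 1 placed nhr-49 (1315 against 1414) and nhr-119 (2436 against 2581) higher than replicate 2 did.

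**Figure D1:**
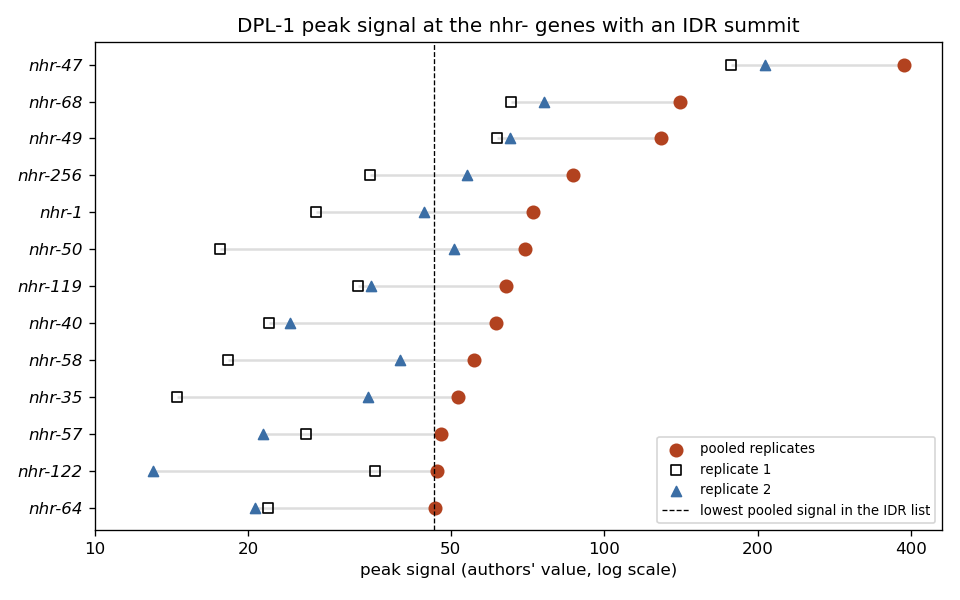
Peak signal (authors' value, log axis) at the 13 nhr- genes with an IDR summit, for the pooled list (circles), replicate 1 (squares) and replicate 2 (triangles); the dashed line is the lowest pooled signal in the IDR list, 46.4, and applies to the circles only. The genes run from nhr-47 at 388 down to nhr-64 at 46.5, with the widest gaps between replicates at nhr-50, nhr-35 and nhr-122.

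Taken one replicate at a time, the set was only partly the same. Among the 3369 strongest peaks of replicate 1, 8 of the 13 genes had a summit in their window, and among those of replicate 2, 9 did. Both replicates gave the same 6 genes, nhr-1, nhr-47, nhr-49, nhr-68, nhr-119 and nhr-256 (46.2%), and neither gave nhr-40 or nhr-64. Over all 2701 bound genes the share found in both was 82.6%, and over the 933 bound genes with a signal under 100 it was 53.3%. The strongest peaks of replicate 1 alone covered 16 receptor genes (5.95%, beside 13.1% of all genes) and those of replicate 2 alone 12 (4.46%, beside 13.3%). Replicate 1 alone added nhr-8, nhr-66, nhr-87, nhr-94, nhr-142, nhr-152, nhr-184 and nhr-238, and replicate 2 alone added nhr-97, nhr-135 and nhr-228.

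The threshold cuts through a series of similar values. Just inside it were nhr-64 (46.5), nhr-122 (46.9) and nhr-57 (47.8), and just outside were nhr-32 (43.4), nhr-121 (41.9) and nhr-135 (41.5). The next unbound genes were nhr-182 with a pooled signal of 41.4 and nhr-228 with 40.8. At nhr-32, on the X, replicate 1 gave 16.8 and replicate 2 gave 24.7, beside 22.0 and 24.2 at nhr-40, which was bound. At nhr-135 replicate 1 had no listed summit within 100 bp and replicate 2 had 30.6. All 5 have the same -log10 q of 3.95 in the authors' pooled list as the IDR peaks do.

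Below the threshold the picture differed, because weak summits were more frequent at unbound receptor genes than at unbound genes in general. Of the 269 genes, 105 (39.0%) had a summit in the pooled relaxed list, bound ones included, beside 35.7% of all protein-coding genes. Among genes with 1 annotated start these shares were 28.1 and 29.2%. Among genes with several starts, which have more window, they were 56.9 and 52.7%. These shares include bound genes, which were fewer among receptor genes in both classes. With 1 start, 2.99% of receptor genes and 11.4% of all genes were bound, and with several starts 7.84 and 19.1%. The split was not made for unbound genes alone, so how far start number goes with the difference among them was not tested. Of the 256 unbound receptor genes, 92 (35.9%) had a relaxed summit, each gene a different one, beside 25.6% of all unbound genes. For 29 of the 256 (11.3%) each replicate also listed a summit within 100 bp of the pooled one, beside 6.46% of all unbound genes. Of the 92, 27 had support in replicate 1 only and 18 in replicate 2 only. The median pooled signal of the 92 was 17.1 (quartiles 13 and 28.9), beside 16.2 (11.9 and 24.3) for all 4425 unbound genes with a summit. In the band from 20 up to the IDR minimum there were 37 receptor genes (13.8%), beside 7.86% of all genes, and 164 receptor genes (61.0%) had no summit at all, beside 64.3%. Under 20 there were 55 receptor genes (20.4%), beside 14.3% of all genes. The strongest of these 55, nhr-63 with 19.6, had a -log10 q of 1.24, beside 3.95 at every bound receptor gene. Many of the 92 summits may thus be background. Because each relaxed list was cut at a fixed number of peaks, a missing summit means only that no peak ranked high enough to be listed.

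**Figure D2:**
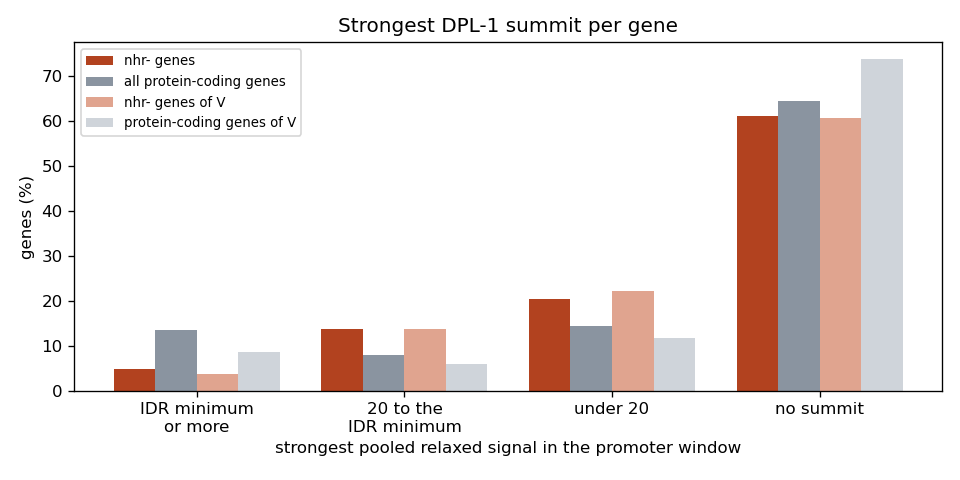
Percentage of genes by the strongest pooled relaxed signal in their window, for the 269 nhr- genes, all protein-coding genes, the 167 nhr- genes of V and all protein-coding genes of V. The nhr- genes are the lower of each pair at or above the IDR minimum (4.83 and 13.5%) and the higher from 20 to that minimum (13.8 and 7.86%).

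The family is concentrated on chromosome V, where bound genes are few in general. That chromosome holds 167 of the 269 receptor genes (62.1%) and 25% of all protein-coding genes. On V, 6 receptor genes (3.59%) were bound, namely nhr-47, nhr-50, nhr-57, nhr-58, nhr-68 and nhr-256, beside 8.49% of all genes there. Off V, 7 of 102 (6.86%) were bound, beside 15.2% of all genes off V, so the difference from other genes was present in both parts of the genome. On chromosome I, 2 of 23 were bound, nhr-49 and nhr-64 (8.70%, beside 21.2%). On chromosome II 1 of 15 was, nhr-119 (6.67%, beside 13.2%), on III none of 8 (beside 22.1%) and on IV 1 of 33, nhr-122 (3.03%, beside 12.8%).

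The X was the exception in direction. Of its 23 receptor genes, 3 were bound, nhr-1, nhr-35 and nhr-40 (13%), beside 7.58% of all genes of the X. All 3 peaks were weak, from 51.7 to 72.3, and with replicate 1 alone 1 of the 23 was called. Relaxed summits without an IDR summit were found at 9 of the 20 unbound genes of the X (45.0%, beside 24.6%), at 13 of 32 on IV (40.6%, beside 24.6%) and at 60 of 161 on V (37.3%, beside 19.5%). On II and III the shares were close to those of other genes, 4 of 14 (28.6%, beside 26.2%) and 3 of 8 (37.5%, beside 35.6%). On chromosome I the order was the other way, with 3 of 21 (14.3%) beside 30.6%. Counts outside V are small, and genes of a tandem group are not independent of each other.

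**Figure D3:**
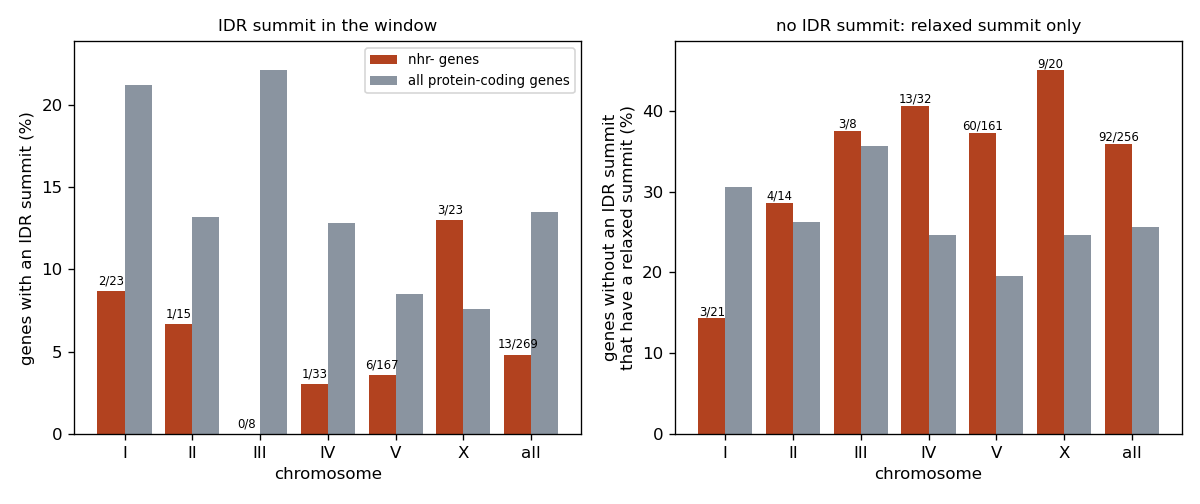
Left, percentage of genes with an IDR summit by chromosome, and right, percentage of genes without an IDR summit that have a pooled relaxed summit, for nhr- genes (with counts above the bars) and for all protein-coding genes. On V the nhr- bar is the lower on the left (3.59 and 8.49%) and the higher on the right (37.3 and 19.5%).

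Bound and unbound receptor genes were compared by where they lie. The gene starts of the 13 bound genes lay at a median of 60.5% of the way from the middle of their chromosome to its end (quartiles 48.8 and 81.5), and those of the 256 unbound ones at 55.3% (33.1 and 78.7). Beyond 66.7% of the way lay 5 of the 13 (38.5%) and 85 of the 256 (33.2%), and the ranges overlap widely. On V alone the order was the other way, with medians of 56.7% for the 6 bound genes and 61.6% for the 161 unbound ones. There, 2 of the 6 (33.3%) and 65 of the 161 (40.4%) lay beyond 66.7%. The order over all chromosomes is thus no result about the receptor genes. Over all genes the bound ones lay nearer the middle, at a median of 39.6%, beside 45.8% for unbound ones. The median number of other nhr- starts within 50 kb was 0 for bound genes and 2 for unbound ones, and 7 of 13 (53.8%) had none, beside 74 of 256 (28.9%). Of 81 receptor genes with no relative within 50 kb, 7 (8.64%) were bound, of 95 with 1 to 3, 4 (4.21%), and of 93 with 4 or more, 2 (2.15%), nhr-58 and nhr-122. The shares had the same order over all protein-coding genes, with 14.5% bound among those with no nhr- start within 50 kb, 8.78% among those with 1 to 3 and 3.41% among those with 4 or more, so the order is not a result about the receptor genes.

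**Figure D4:**
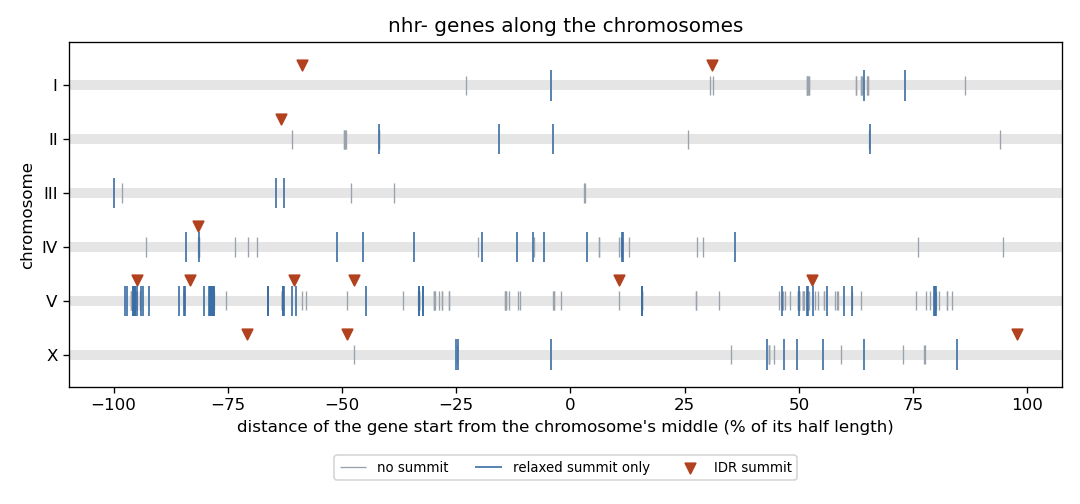
Position of each of the 269 nhr- gene starts along its chromosome, as distance from the middle in percent of the way to the end, with bound genes as triangles, genes with a relaxed summit only as long blue ticks and genes with no summit as short grey ticks. The left end of V is crowded with genes that have a relaxed summit only, and the 13 bound genes are spread over 5 chromosomes.

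The left end of chromosome V held 32 of the 60 unbound receptor genes of V that had a relaxed summit. Beyond 66.7% of the way to its left end, 34 of 56 receptor genes (60.7%) had a pooled relaxed summit, 2 of them bound, beside 25.2% of all 794 genes there. At the right end it was 3 of 11 (27.3%), beside 25.9% of 660 genes. Within 33.3% of the way from the middle of V the order was the other way, with 9 of 41 (22%) beside 28.8% of all genes there. Between the middle and the ends it was 20 of 59 (33.9%), beside 24.5%. The densest group of the family lies at the left end: 18 receptor genes have their starts between chrV:2212118 and chrV:2294877, around nhr-182. None of the 18 was bound, and 12 had a relaxed summit, from 11.3 to 41.4. The highest values there were 41.4 at nhr-182, 40.8 at nhr-228, 39.6 at nhr-56 and 38.3 at nhr-184. At nhr-182 replicate 1 gave 17.8 and replicate 2 gave 22.3, with the summit at -52 bp. At nhr-184 they gave 30.4 and 15.4, at -312 bp. In 5 of the 18 windows a pooled summit was listed in both replicates. Of the 15 other protein-coding genes in the same interval, 3 had a relaxed summit and 1 of these was bound. This group was picked as the one with the most receptor genes within 50 kb, after earlier results were known, and it was not tested.

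The genes beside the receptors give a local reference. The next protein-coding genes on either side that are not receptors number 338, of which 25 (7.40%) were bound, beside 4.83% of the receptor genes. On V they number 174, of which 9 (5.17%) were bound, beside 3.59%. A relaxed summit without an IDR summit was found at 21.4% of the unbound ones among these neighbours and at 35.9% of the unbound receptor genes.

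Promoter arrangement differed between the family and other genes, and with it the share bound. Another protein-coding start lay within 1000 bp for 28 of the 269 receptor genes (10.4%), beside 25.5% of all genes and 58.6% of all bound genes. Where another start was near, 3 of 28 receptor genes (10.7%) were bound, beside 31.1% of all such genes. Where none was, 10 of 241 (4.15%) were bound, beside 7.51%. Of the 13 bound receptor genes, 2 (15.4%) shared their summit with another gene, beside 46.8% of all bound genes. Genes with several annotated starts have more window, and 8 of the 102 receptor genes with several starts (7.84%) were bound, beside 5 of 167 with 1 start (2.99%). Over all genes these shares were 19.1 and 11.4%. The median gene length was 4704 bp for the bound receptor genes and 2257 bp for the unbound ones, and the gap to the next gene upstream had medians of 2596 and 1539 bp. Over all genes the median lengths were 2417 bp (bound) and 1977 bp (unbound). For the gap the order over all genes was the other way, with medians of 492 bp (bound) and 1089 bp (unbound). How far these features account for the lower share was not tested.

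**Figure D5:**
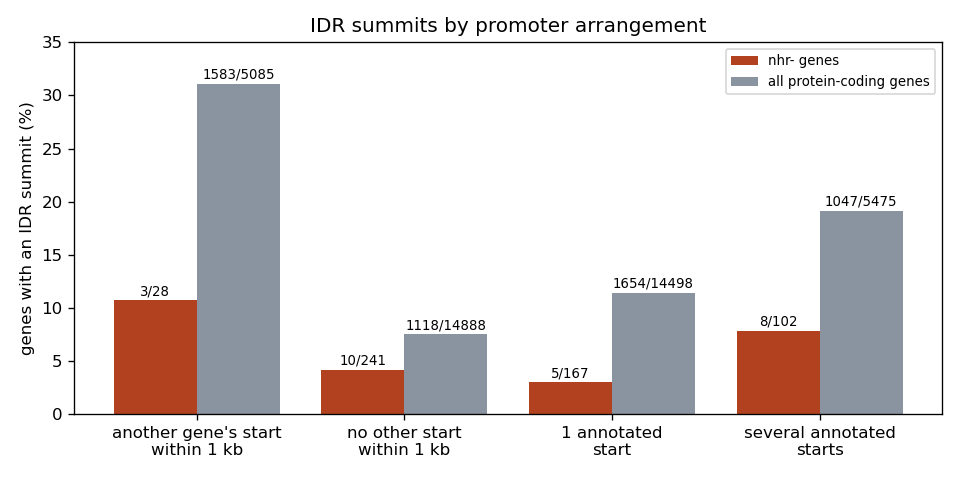
Percentage of genes with an IDR summit by promoter arrangement, for nhr- genes and all protein-coding genes, with the counts above the bars. The nhr- genes are the lower in each class, with the smaller gap where no other start lies within 1000 bp (4.15 and 7.51%).

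Bound summits lay mostly upstream of the start, at receptor genes as over all genes. The median distance was -164 bp for the 13 (quartiles -378 and -20), with 11 of 13 upstream. For all bound genes it was -173 bp (-277 and -104), with 2544 of 2701 upstream. For the 92 unbound receptor genes with a relaxed summit it was -97 bp, with 70 of 92 upstream. For all unbound genes with a relaxed summit it was -129 bp, with 3296 of 4425 upstream. Lying upstream is therefore no trait of the receptor genes. Of the 13 summits, 10 lay between genes, 2 in introns, at nhr-40 and nhr-122, and 1 in an untranslated exon, at nhr-50. This split is not given for all IDR summits.

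Of 11 conserved receptor genes, with counterparts in insects or vertebrates, 6 had a relaxed summit only, 5 had none and 0 were bound. Beside 4.83% of the family and 13.5% of all genes, a list of this size does not set them apart. Among unbound genes, 35.9% of receptor genes and 25.6% of all genes had a relaxed summit. With a list this small, the count of relaxed summits is no result about the conserved genes either. The highest was nhr-8, a regulator of cholesterol and xenobiotic responses, with 38.8 pooled and 26.4 in replicate 1, and no summit within 100 bp in replicate 2. Next came nhr-41, the counterpart of fly DHR78, with 28.4 pooled and 15.2 in replicate 2 only. The moulting genes were lower: nhr-23, the counterpart of ROR, had 17.1, nhr-25, the counterpart of fly FTZ-F1, 18.2, and nhr-85, related to fly E75, 18.7. At nhr-239 it was 13. Each of these 6 summits was listed in 1 replicate only. No summit was listed at nhr-6, which is needed for the spermatheca, at nhr-67, the tailless counterpart of the anchor cell, or at nhr-48, nhr-91 and nhr-111. The other 258 receptor genes held all 13 bound ones, with 86 more having a relaxed summit only.

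Among 11 receptors of metabolism and detoxification, 2 were bound, nhr-49 and nhr-68, and 6 had a relaxed summit only. With 13.5% of all genes bound, neither this count nor that of the developmental receptors below stands apart from the background. The same holds for their counts of relaxed summits, with so few genes, beside 35.9% of unbound receptor genes and 25.6% of all unbound genes. The partners of NHR-49 in lipid metabolism, nhr-80 (39.3), nhr-66 (37.8) and nhr-13 (27.7), were among the 6 with a relaxed summit only. The nhr-80 summit was listed in replicate 2 only, that of nhr-66 in replicate 1 only, and that of nhr-13 in both, with 8.87 and 19.4. At nhr-114, which is needed for fertility on some bacterial diets, the pooled value was 22.8, with 10.4 and 14.3 in the replicates. At nhr-86, a receptor of detoxification and immune genes, it was 16.7. No summit was listed in the windows of nhr-10, the partner of nhr-68, of nhr-62, which is needed for the long life of dietary restriction, or of nhr-76. Of 8 receptors of development nhr-40 was bound, 3 had a relaxed summit only (nhr-23, nhr-25 and nhr-85) and 4 had none, nhr-2, nhr-6, nhr-60 and nhr-67.

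Other genes of nuclear receptor signalling were bound in 1 case, din-1, beside 13.5% of all genes, and with so few genes this is no result about them. Nor are their few relaxed summits, beside 25.6% of all unbound genes. None of 5 nuclear receptor genes with other names was bound. The steroid receptor gene daf-12 had 13.9 in the pooled list with no support within 100 bp in either replicate, and fax-1, sex-1, unc-55 and odr-7 had no summit. Of 4 cofactor genes, din-1, which encodes a corepressor of DAF-12, was bound, with 74.8 pooled, 38.8 in replicate 1 and 28.3 in replicate 2. At cbp-1, a histone acetyltransferase gene, the pooled value was 23.9, at the Mediator subunit gene mdt-15 it was 17.2, and gei-8, another corepressor gene, had no summit. None of 8 genes that supply steroid hormones was bound: ncr-1 (14.9) and emb-8 (9.42) had relaxed summits only, and daf-9, daf-36, hsd-1, dhs-16, ncr-2 and strm-1 had none. The 63 homeobox genes with names beginning ceh-, another large family of transcription factors, were bound in 5 cases (7.94%, beside 13.5% of all genes), with a median signal of 51.8. Of the 58 unbound ceh- genes 13 (22.4%) had a relaxed summit, beside 35.9% of unbound receptor genes and 25.6% of all unbound genes.

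Some unbound receptor genes had IDR summits outside the promoter window. In the gene body or within 2000 bp upstream, 19 of the 256 unbound genes (7.42%) had such a summit, beside 8.97% of all unbound genes. Summits of the upstream kind touched 13 genes. The strongest, 289, lay at -532 bp from nhr-142 and in the window of F44E7.9. The next, 190, lay at -1097 bp from nhr-8 in the windows of emc-6, mrpl-1 and mrps-24, which encode a subunit of an endoplasmic reticulum membrane complex and mitochondrial ribosomal proteins. A summit of 91.3 lay at -1387 bp from nhr-10, in no gene's window, with 50.7 in replicate 1 and 50.5 in replicate 2. Inside gene bodies there were 8 summits in 6 genes. They were in nhr-19 (167 and 51.0), nhr-3 (127), nhr-85 (84.6), nhr-17 (83.6), nhr-46 (73.1 and 46.8) and nhr-31 (67.6), and none lay in the promoter window of another gene. The summit in nhr-19 had 73.5 and 88.2 in the replicates, more than any bound receptor gene but nhr-47 had in either. That in nhr-85, with 34.0 and 49.6, lay 970 bp upstream of an internal start.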

How the data were processed

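Peak lists of 2 replicates of 1 group on build ce11 were used, with the WBcel235 genome (the same assembly) and the Ensembl release 115 annotation. Each relaxed list was called against a control alignment and the IDR list was derived from the pooled and replicate lists, per the deposited file listings. Aligner and caller remain not given in the sources used here. Signal, -log10 q and summit offset per peak are the authors' values, deposited in narrowPeak format. The lists on ce10 were not used.

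Summits were assigned to genes within 500 bp upstream to 200 bp downstream of any transcript start, and to replicates within 100 bp, with Python 3.11.15 and pandas 2.3.3. Coordinates are 1-based. In a test on simulated data, 200 summits were planted inside gene windows and 100% were recovered. This checks the assignment by position only and tells nothing about how well real binding was found. The members and gene lists were chosen with earlier results of these data known, so no test was made. Counts of bound genes are read against the same share over all genes. The rule for named genes was every bound member, the 5 strongest unbound members, all genes of the lists and genes that share a bound member's summit. Other named genes were chosen after their values were seen. Alternatives were other windows, assignments, thresholds and the strongest 3369 peaks of a single replicate.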

Additional observations from a re-analysis of the deposited data

How the results depend on the processing

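The count of 13 bound receptor genes was 6 when only 200 bp upstream and 100 bp downstream were searched (2.23%, beside 7.61% of all genes) and 3 in IDR peaks above the median signal (1.12%, beside 8.94%), and from 10 to 17 under the other alternatives run. Under all of these the share was below that of all genes. Without replicate 1 or 2 the count was 12 to 16, on chromosome I 1 to 1, on IV 1 to 4, on X 1 to 2, for conserved receptors 0 to 1, for metabolic receptors 2 to 4, for developmental receptors 0 to 0 and for cofactors 1 to 2. In the narrow window the counts were 1 on I and 0 on II, IV and X, and 0 for metabolic and developmental receptors. Above the median signal they were 1 on I, 2 on V, 0 on II, IV and X, and 0 for developmental receptors and cofactors. Reaching 1000 bp upstream gave 2 on II, 1 conserved receptor (nhr-85), 2 developmental receptors, 2 cofactors and 1 gene of hormone supply. With the nearest start 1 metabolic receptor was bound, with the most upstream start 0 developmental receptors and 0 cofactors, and without genes that have a start within 1000 bp, 1 and 0 of the metabolic and developmental receptors. The count of 105 with a relaxed summit was 66 in the narrow window. With 50 bp either side of the summit the E2F site was at 0 and the CHR element at 1 of 13, and with 200 bp the CHR element was at 7. No paired analysis was possible because there is 1 group. Read depth is unknown.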

Other observations

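Repeated sequence in the windows was counted as the share of 31-base words that occur more than once in the genome, on either strand, in the window of the most upstream start. At the 13 bound receptor genes that share was 0 in every window. Of the 256 unbound ones, 29 (11.3%) had more than 10% repeated words and 5 (1.95%) more than 50%, beside 12.4 and 3.55% of all unbound genes. The 5 were nhr-141 (96.6%), nhr-244 (89.3%), nhr-259 (88.1%), nhr-73 (86.3%) and nhr-245 (86.1%), and none of them had a relaxed summit. How the alignment treated reads from such windows was not tested.

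The nearest IDR summit to an unbound receptor gene lay at a median of 26149 bp from its start (quartiles 11074 and 49246), with the farthest at 137764 bp. This distance was not measured for other unbound genes, so it does not set the receptor genes apart.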
